A study of Mus musculus with 6 samples.

Results

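The ATF4 group described here holds 10 of the 18193 genes named on the array: the transcription factors Atf4, Atf5, Cebpg and Ddit3 (CHOP), the metabolic enzymes Asns and Chac1, the stress proteins Trib3 and Nupr1, and the growth regulators Sesn2 and Eif4ebp1. They were chosen by name, with earlier results of the same arrays known, so their differences between P4 and oil are a description. Whether a member lay past the threshold of the fit over all genes is stated as part of that description and supports nothing. Every probe set annotated to exactly 1 of these symbols was used, 21 of 34945. The RNA came from uterine horns of ovariectomized female mice, 8 weeks old and of mixed background, of the genotype GATA2 f/f, the usual notation for 2 floxed copies of Gata2. All 6 arrays share this genotype and the ovariectomy, and a recombinase is not among the labels of either group. Oil, the usual carrier of steroid hormones, was given to 1 group (3 arrays) and P4, the standard abbreviation of progesterone, to the other (3 arrays), and the comparison asks which transcripts differ after the hormone. Dose and time after treatment are not in the labels. Nor is it stated that each array had its own animal, so a p-value here reflects only the scatter among these arrays, part of which may be technical.

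ATF4 is the central transcription factor of the integrated stress response. Kinases that sense amino acid shortage, unfolded protein in the endoplasmic reticulum, double-stranded RNA or haem deficiency phosphorylate the initiation factor eIF2 on its alpha subunit. General translation then falls while translation of Atf4 mRNA, which carries upstream open reading frames, rises, so Atf4 mRNA is an incomplete measure of ATF4 protein. ATF4 pairs with C/EBP proteins and activates genes for amino acid supply, and under lasting stress also CHOP and the pro-death or feedback genes downstream of it. In the uterus progesterone readies stroma and epithelium for an embryo, a change that calls for much protein synthesis and secretion.

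Array values are linear intensities as deposited, and differences are given on the log2(intensity + 16) scale as P4 minus oil ± SE, which understates changes of dim probe sets. Median intensities ran from 117 to 123 over the 6 arrays, and no detection calls were used. Hybridisation controls were 0.15 log2 lower on the P4 arrays. Scaling to them raised the median difference of all genes by 0.15 and turned the split of genes past the threshold from 1106 higher and 1262 lower (46.7% higher) to 2440 and 580 (80.8% higher). Summed markers of epithelium, stroma and smooth muscle were above 0 on every array, which without detection calls does not show that a cell type is present. Of these markers 0 of 7, 1 of 6 and 0 of 6 passed the test. The stromal one was Lum, lower after P4 (-0.90 ± 0.18, limma adjusted p 0.0156). Of the epithelial ones Krt18 (-0.62 ± 0.19) and Krt19 (-0.34 ± 0.10) were lower on every P4 array than on any oil array, while Krt7 (0.14 ± 0.22) and Cldn4 (0.31 ± 0.14) leaned up. The summed epithelial markers ran from 13795 to 15781 after oil and from 8581 to 14282 after P4. Summed endothelial markers did not overlap, at 4509 to 4979 after oil and 4029 to 4381 after P4, with 1 of 5, Tek, past the test and lower. The 3 fat markers had a median difference of -1.38, with sums of 800 to 1508 after oil and 296 to 828 after P4, and 0 passed. The part of these cell types in the members' values was not tested. In whole tissue, fewer cells of a type and less RNA per cell cannot be told apart.

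The members split into 3 genes that were higher on every P4 array than on any oil array, Atf4, Asns and Sesn2, and 7 whose groups overlapped. The first 3 lay past the threshold of limma's fit over all genes (adjusted p under 0.05) and the other 7 did not, where 13.0% of all genes passed (6.08% higher, 6.94% lower) and 31.8% had no overlap between groups (14.3% with P4 higher, 17.5% with P4 lower). As the members were chosen with this comparison in view, nothing is read from that share. Asns had the largest difference, 1.41 ± 0.11, ranked 85 of 18193 from the highest, Atf4 had 0.78 ± 0.07 (rank 317) and Sesn2 0.43 ± 0.11 (rank 988). Among the other 7, Atf5, Cebpg and Eif4ebp1 had differences between 0.12 and 0.28, and Ddit3, Trib3, Chac1 and Nupr1 between -0.40 and -0.08. The median over the 10 members was 0.14, beside -0.01 over all genes. With scaling to the hybridisation controls Trib3 (0.05) and Chac1 (0.07) turned positive.

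**Figure D1:**
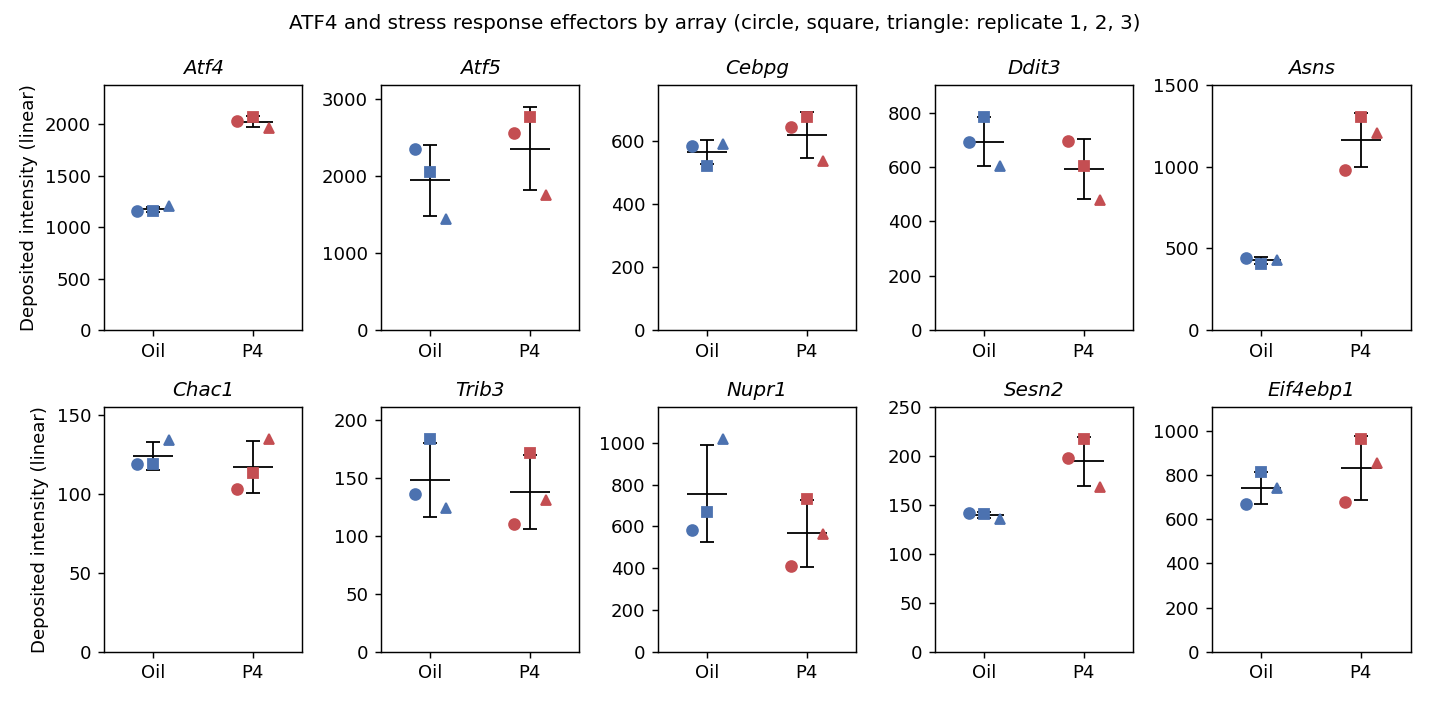
Deposited intensity (linear, axis from 0) of each member on the 3 oil and 3 P4 arrays, for the probe set of highest mean; bars give mean ± SD (n = 3) and symbols the replicate number. Atf4, Asns and Sesn2 separate the groups, while the other 7 genes overlap.

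Atf4, which encodes the effector of the response itself, was read by 3 probe sets. The brightest, 1448135_at, had intensities of 1155, 1157 and 1203 on the oil arrays and of 2036, 2073 and 1967 on the P4 arrays. Means were 1172 ± 27.1 (SD, n = 3) and 2025 ± 54.0 (SD, n = 3), a ratio of 1.73. The spread within each group was small against the gap, with a within-group SD of 0.04 log2. A further Atf4 probe set, 1438992_x_at, had 1218, 1055 and 1207 after oil and 2106, 1948 and 1718 after P4 (0.72 ± 0.10), again without overlap. The third, 1439258_at, was dim, at 52.8 to 65.8 after oil and 63.9 to 72.7 after P4 (0.14 ± 0.10), and its groups overlapped. Averaging the 3 probe sets gave Atf4 a difference of 0.55, which still passed.

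Atf5, a close relative of ATF4 whose mRNA is likewise translated under eIF2 phosphorylation, varied more between replicates than between groups. Its 1 probe set, 1425927_a_at, had 2350, 2049 and 1440 after oil and 2557, 2772 and 1752 after P4, a difference of 0.28 ± 0.22. Replicate 3 was the lowest of its group in both, and P4 was above oil at each replicate number, by 0.12, 0.43 and 0.28 log2. With the replicate number as a block Atf5 also lay past the threshold, which made 4 of 10 members, beside 20.9% of all genes in that fit (9.29% higher, 11.6% lower). Cebpg, a C/EBP partner of ATF4 without an activation domain of its own, had 583, 519 and 590 after oil and 643, 676 and 536 after P4 (0.12 ± 0.11). Its other probe sets had differences of 0.19 ± 0.10 and 0.19 ± 0.13, and the groups overlapped in all 3.

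Ddit3 encodes CHOP, the factor that ATF4 induces under lasting stress. Its brighter probe set, 1417516_at, had 691, 785 and 605 after oil and 696, 605 and 478 after P4 (-0.23 ± 0.15), and the lowest array of each group was again replicate 3. The dimmer one, 1443897_at, had 116, 114 and 89.8 against 138, 137 and 81.6 (0.11 ± 0.18). The probe sets thus differed in sign, and neither separated the groups. Trib3, a pseudokinase induced by ATF4 and CHOP that feeds back on ATF4, had 136, 184 and 124 after oil and 110, 172 and 131 after P4 on 1456225_x_at (-0.10 ± 0.18). Replicate 2 was the highest array of both groups on this probe set. The second Trib3 probe set, 1426065_a_at, gave -0.17 ± 0.13.

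Nupr1, a small chromatin-bound stress protein, had the widest spread of the 10 genes, with a within-group SD of 0.41 log2. Probe set 1419665_a_at had 581, 670 and 1021 after oil and 409, 731 and 564 after P4 (-0.40 ± 0.25), and 1419666_x_at followed it closely (-0.41 ± 0.24). Oil replicate 3 was the highest array and P4 replicate 1 the lowest. Between numbers the P4 minus oil difference was -0.49, 0.12 and -0.84. Summed leukocyte markers also varied widely between arrays, at 1177, 1803 and 3105 after oil and 908, 2735 and 3047 after P4. Like Nupr1 they were highest on oil replicate 3 and lowest on P4 replicate 1. Unlike it they were highest among the P4 arrays on replicate 3, where Nupr1 (564) lay below every oil array. Summed granulocyte markers were 597, 687 and 11019 after oil and 517, 7454 and 15425 after P4. P4 replicate 1 had the largest 3' to 5' difference of the Gapdh control, 1.24 log2, where the other arrays had 0.58 to 0.88. Their part in the Nupr1 values was not tested.

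Asns, asparagine synthetase, makes asparagine from aspartate and glutamine and is a standard reporter of ATF4 activity. Probe set 1451095_at had 443, 404 and 431 after oil and 982, 1305 and 1205 after P4, so the lowest P4 array stood above the highest oil array by more than the whole spread of either group. Means were 426 ± 20.4 (SD, n = 3) and 1164 ± 166 (SD, n = 3), a ratio of 2.73. A second Asns probe set, 1433966_x_at, had 268, 290 and 296 against 749, 1044 and 882 (1.58 ± 0.12). Both probe sets were lowest on replicate 1 of the P4 arrays. Chac1, which breaks down glutathione and is among the most sensitive ATF4 and CHOP targets in many cells, had 119, 119 and 134 after oil and 103, 113 and 135 after P4 (-0.08 ± 0.11). Replicate 3 was the highest Chac1 array in both groups, and the other 2 P4 arrays lay below every oil array.

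Sesn2 encodes sestrin 2, a leucine sensor that restrains the growth kinase complex mTORC1 and is induced by ATF4, p53 and NRF2. Its brighter probe set, 1425139_at, had 142, 141 and 136 after oil and 198, 218 and 169 after P4 (0.43 ± 0.11). The other one, 1451599_at, had 105, 101 and 102 against 223, 255 and 169 (0.94 ± 0.14), a ratio of means of 2.09 where the first gave 1.40. Both separated the groups, and on both P4 replicate 3 was the P4 array nearest to oil. On the first probe set Sesn2 was no longer past the threshold when any 1 array other than P4 replicate 3 was left out, while Atf4 and Asns were past it whichever array was left out. Eif4ebp1, a repressor of cap-dependent translation that mTORC1 switches off, had 671, 815 and 742 after oil and 677, 965 and 854 after P4 (0.15 ± 0.14). Its other probe sets gave -0.05 ± 0.10 and 0.29 ± 0.18, and none of the 3 separated the groups.

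**Figure D2:**
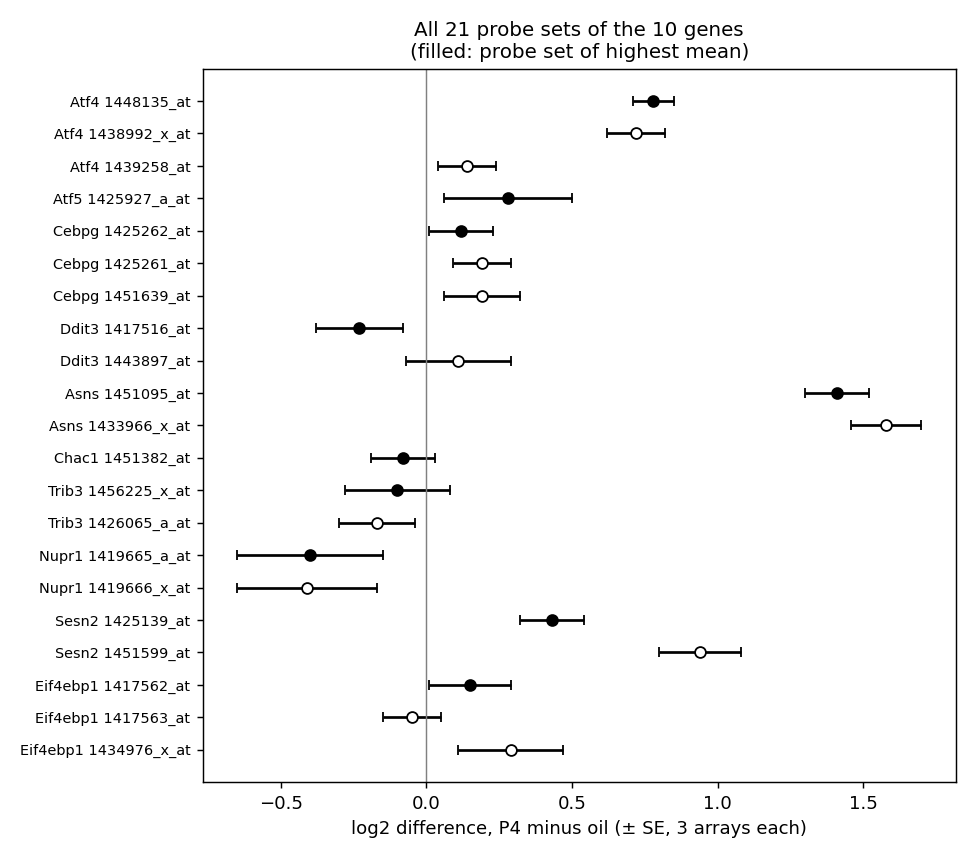
P4 minus oil difference in log2(intensity + 16), ± SE, for all 21 probe sets of the 10 genes; filled points mark the probe set of highest mean. The 6 probe sets without overlap between groups belong to Atf4, Asns and Sesn2, and the brightest and dimmer Ddit3 probe sets lie on opposite sides of 0.

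Over all probe sets, 6 of 21 had no overlap between groups, 2 each of Atf4, Asns and Sesn2. When every probe set was tested as its own feature, 6 passed, where 10.1% of 34945 probe sets did (5.08% higher, 5.04% lower). Of the 21 differences 14 were positive and 7 negative. By replicate number, P4 was above oil at all 3 numbers for 5 members (Atf4, Atf5, Asns, Sesn2 and Eif4ebp1) and below oil at all 3 for 0. Replicate 2 stood highest among the P4 arrays for 8 members, Atf4, Atf5, Cebpg, Asns, Trib3, Nupr1, Sesn2 and Eif4ebp1. These counts by replicate number were not made over all genes, so nothing is read from them.

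**Figure D3:**
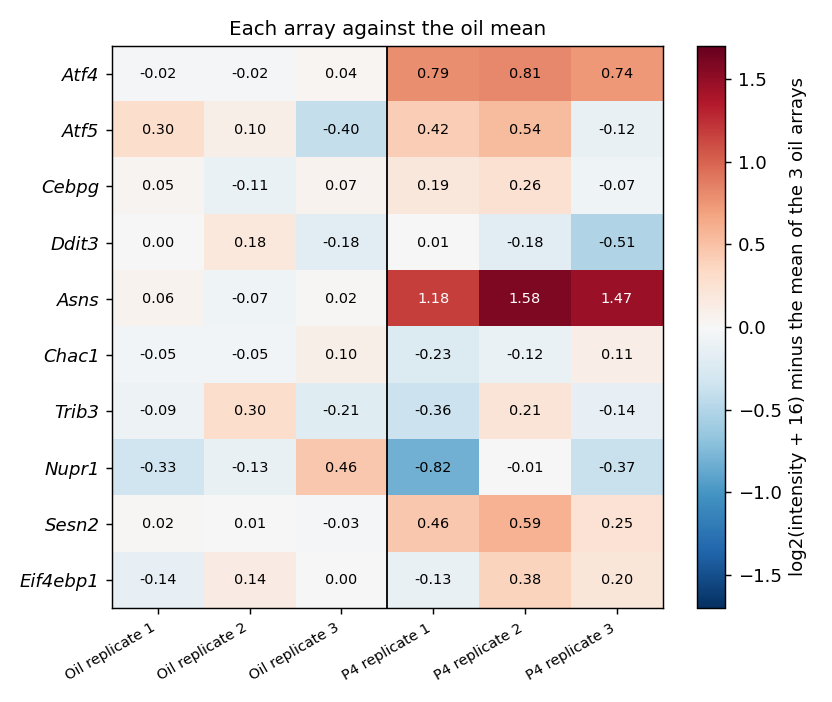
log2(intensity + 16) of each member on each array minus the mean of its 3 oil arrays, for the probe set of highest mean. Asns runs from 1.18 to 1.58 and Atf4 from 0.74 to 0.81 on the P4 arrays, while Ddit3 runs from -0.51 to 0.01 and Nupr1 from -0.82 to -0.01.

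The genes nearest to a member over the 6 arrays, by the root mean square difference of log2 values taken from each gene's own oil mean, were looked up among genes of mean intensity of at least 100. Nearest to Atf4 were Ppp3r1, the regulatory subunit of calcineurin (0.03), Mak16, a ribosome biogenesis factor (0.04), Selenos, a selenoprotein of endoplasmic reticulum degradation (0.04), and Riox1 (0.05). Asns had Ptger3, a prostaglandin E2 receptor (0.10), then Hyls1, Pcsk5 and the spermidine synthase Srm (0.12 each). The 4 nearest to Ddit3 were Enkur, Gaa, Mgat5 and Glis3 (0.03 to 0.06). Trib3 was nearest to Gad1os, Cdc37, Wdpcp and Nova1 (0.08 to 0.10), and Nupr1 to Rassf4, Rgs4, Ly96 and Elk3 (0.12 to 0.14). Between members, the pairs farthest apart were Asns with Nupr1 (1.31) and Asns with Ddit3 (1.19). These distances describe 6 arrays in 2 groups and hold each gene's group difference.

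ATF4 with a C/EBP partner binds a composite sequence, the C/EBP-ATF response element, whose core was searched as TGATGNAA on both strands (N is any base) from 250 bases before to 50 bases after annotated start sites (RefSeq, GRCm38.p6). The core was found in 3.97% of 32851 promoters. Among the members 10 promoters of 9 genes were searched and 4 held it, those of Asns, Chac1, Trib3 and Nupr1. They are printed here because the same core was found at 1 gene that was higher on every P4 array and at 3 whose groups overlapped. Each is shown 5′ to 3′ on the gene's strand with the core in capitals, which is on the opposite strand where it reads from TT to CA.
Asns, chr6:7693199-7693258, - strand: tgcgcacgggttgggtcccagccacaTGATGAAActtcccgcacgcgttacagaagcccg
Chac1, chr2:119351023-119351082, + strand: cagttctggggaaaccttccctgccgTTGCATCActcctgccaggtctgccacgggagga
Trib3, chr2:152344013-152344072, - strand: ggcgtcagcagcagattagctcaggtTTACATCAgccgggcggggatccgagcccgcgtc
Nupr1, chr7:126625547-126625606, - strand: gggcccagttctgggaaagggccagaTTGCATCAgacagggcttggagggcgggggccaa
The first base of the core lay 23 bases before the annotated start in Asns, 193 before in Chac1, 110 before in Nupr1 and at base 15 after it in Trib3. The Asns promoter of 300 bases, chr6:7693160-7693459 on the - strand, gives the wider context.
Asns promoter: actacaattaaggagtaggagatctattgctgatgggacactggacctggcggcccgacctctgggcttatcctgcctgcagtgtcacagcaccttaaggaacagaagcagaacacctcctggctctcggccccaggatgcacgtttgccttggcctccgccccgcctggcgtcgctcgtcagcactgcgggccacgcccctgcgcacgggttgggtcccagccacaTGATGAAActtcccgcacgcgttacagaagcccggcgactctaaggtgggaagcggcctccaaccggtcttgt
No member promoter held the palindrome TGACGTCA (1.79% of all promoters), the endoplasmic reticulum stress element ERSE (0.119%), or ACANNNTGT, a spaced palindrome bound by receptors for progesterone and glucocorticoids (6.85%), which says only that these letters are not in these windows.

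Other genes of the pathway, none of them members, were taken from 12 lists of 181 genes, 169 of them measured, and tested by limma over all genes. In total 49 rose and 15 fell after P4, 37.9% beside 13.0% of all genes. As the lists were written with earlier results of these arrays known, nothing is read from that share. Without oil replicate 2, 27 rose and 8 fell. Without that array the count over all genes was 993 in place of 2368. Upstream of ATF4 none of the 4 eIF2 alpha kinases passed. Eif2ak3 (PERK), which senses endoplasmic reticulum stress, had 0.07 ± 0.07, Eif2ak4 (GCN2), which senses uncharged tRNA, 0.05 ± 0.08, Eif2ak2 -0.07 ± 0.14 and Eif2ak1 0.17 ± 0.09. With scaling to hybridisation controls Eif2ak1 passed (0.32, limma adjusted p 0.0421). In their list, which adds eIF2, eIF2B and the phosphatase subunits, 5 of 17 rose and 1 fell, but 2 rose and 0 fell when oil replicate 1 or 2 or P4 replicate 2 was left out, and 9 and 0 with that scaling. Dnajc3, an inhibitor of PERK, rose by 0.86 ± 0.07 (limma adjusted p 0.000672), while Ppp1r15a (GADD34), the phosphatase subunit that ATF4 and CHOP induce, had 0.09 ± 0.10. Its constitutive counterpart Ppp1r15b rose by 0.42 ± 0.08 (limma adjusted p 0.0107). Ppp1r15b did not pass without oil replicate 2 (0.0568) or without probe sets ending in x, s or a (0.0726). That last fit read it on another probe set.

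Asns belongs to the amino acid supply arm of ATF4. Of the 13 genes for cytosolic tRNA synthetases, with the tRNA exporter Xpot among them, 9 rose and 0 fell, with a median of 0.54. Aars went from 414 ± 22.7 (SD, n = 3) to 864 ± 92.4 (SD, n = 3), a difference of 1.03 ± 0.10, and Gars from 877 ± 41.7 to 1764 ± 77.9, while Sars had 0.04 ± 0.12. In the list of amino acid synthesis and transport 7 of 19 rose and 0 fell, with a median of 0.44. The folate enzyme Mthfd2 rose by 2.67 ± 0.19, the cysteine-making Cth by 1.56 ± 0.15, the serine-making Phgdh by 1.20 ± 0.17 and the cationic amino acid transporter Slc7a1 by 0.80 ± 0.08 (limma adjusted p from 0.00055 to 0.0052). Psat1 (0.43 ± 0.23) and the cystine transporter Slc7a11 (-0.47 ± 0.21), both well known ATF4 targets, did not pass.

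Stress effectors downstream of ATF4 and CHOP, the company of Ddit3, Trib3 and Chac1, had 1 of 18 higher, 2 lower and a median of 0.03. That is 16.7% passing beside 13.0% of all genes, so nothing is read from the count. It was 0 higher and 1 lower without oil replicate 2, and 2 higher and 1 lower with scaling to hybridisation controls. The higher one was Pmaip1 (Noxa), a death-promoting BCL2 family member, with 1.29 ± 0.24 (limma adjusted p 0.0116, 0.0544 without oil replicate 2), and Gadd45a (-0.88 ± 0.15) and Ndrg1 (-0.48 ± 0.11) were lower. Ndrg1 missed the threshold (adjusted p at most 0.109) when oil replicate 1 or 2 or P4 replicate 3 was removed, with the mean of its probe sets (0.0539) and with scaling to hybridisation controls (0.123). Atf3 (0.39 ± 0.23), Herpud1 (-0.08 ± 0.09) and Ddit4 (-0.11 ± 0.10) did not pass. Of the autophagy genes 4 of 12 fell and 1 rose, and Gabarapl1 (-0.74 ± 0.10) and Sqstm1 (-0.61 ± 0.11) were among those that fell. Without probe sets ending in x, s or a, Sqstm1 was read on another probe set and had -0.38 (limma adjusted p 0.227). In the autophagy list 3 fell and 0 rose without oil replicate 1 or 2. Scaling to hybridisation controls evened the autophagy split to 3 higher and 3 lower.

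The same core was looked up in the promoters of the list genes. Of 14 list genes with a match among 131 with a promoter, 6 rose and 8 did not pass. Over all 169 measured list genes, matched or not, 49 rose and 105 did not pass. These 169 include genes without a promoter to search, so the bases are unlike. All 5 matched synthetase genes, Aars, Gars, Iars, Tars and Yars, were among the 6. In their list as a whole 9 of 13 rose. All 5 matched stress effectors, Atf3, Fgf21, Vldlr, Herpud1 and Jdp2, were among the 8, and in their list as a whole 15 of 18 did not pass. A promoter was searched for only 9 of the 13 genes of the synthetase list and 15 of the 18 stress effectors. Nothing about the core is read from either split. These counts describe letters in a window and were not tested. Windows of 5 of them, 3 that rose and 2 that did not pass, are shown in the same format as those of the members. The Aars promoter held a further core at base 10 after the annotated start, whose window is not shown.
Aars, chr8:111033704-111033763, + strand: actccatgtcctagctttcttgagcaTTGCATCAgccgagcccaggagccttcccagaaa
Gars, chr6:55037945-55038004, + strand: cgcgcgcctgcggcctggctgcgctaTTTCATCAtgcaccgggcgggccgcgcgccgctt
Tars, chr15:11399640-11399699, - strand: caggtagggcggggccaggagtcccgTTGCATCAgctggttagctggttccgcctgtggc
Atf3, chr1:191183410-191183469, - strand: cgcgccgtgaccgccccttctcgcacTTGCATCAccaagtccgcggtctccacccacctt
Herpud1, chr8:94386291-94386350, + strand: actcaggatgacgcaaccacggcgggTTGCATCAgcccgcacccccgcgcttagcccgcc

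The paralogs of Sesn2 fell, Sesn3 from 1783, 1732 and 1898 to 832, 847 and 744 (-1.15 ± 0.08, limma adjusted p 0.000547) and Sesn1 from 1787, 1742 and 1553 to 1238, 1024 and 1125 (-0.58 ± 0.10, adjusted p 0.00826). Trib1, a relative of Trib3, rose by 0.57 ± 0.10 (adjusted p 0.0114, 0.0551 without oil replicate 2 and 0.071 with the mean of its probe sets). Chac2 (0.13 ± 0.18), Eif4ebp2 (0.30 ± 0.15) and the C/EBP gene Cebpb (0.16 ± 0.20) did not pass, but Eif4ebp2 did with the replicate block (limma adjusted p 0.0248) and Cebpb did without oil replicate 3 (0.42, adjusted p 0.046). In all, 1 of 10 measured paralogs rose and 2 fell (3 and 2 with the replicate block). In the list of amino acid sensing and mTORC1 control 1 of 19 rose and 5 fell, the 2 sestrins among them, 0 rose and 3 fell without oil replicate 2, and 3 rose and 3 fell with scaling to hybridisation controls. Ddit4l, another brake on mTORC1, fell with a difference of -1.14 ± 0.10, and Eif4e, the cap-binding protein that Eif4ebp1 holds back, rose by 0.65 ± 0.12 (0.0593 without oil replicate 2).

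The neighbouring ATF6 and XBP1 branch of the unfolded protein response had 12 of 24 higher and 0 lower, with a median of 0.35, with 7 higher when oil replicate 1 or 2 was left out and 19 with scaling to hybridisation controls. Manf rose by 1.32 ± 0.13 and the chaperone Hspa5 by 1.09 ± 0.07, whereas Xbp1 itself had 0.01 ± 0.08. Herpud1, which belongs to this list too, had the value given above.

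**Figure D4:**
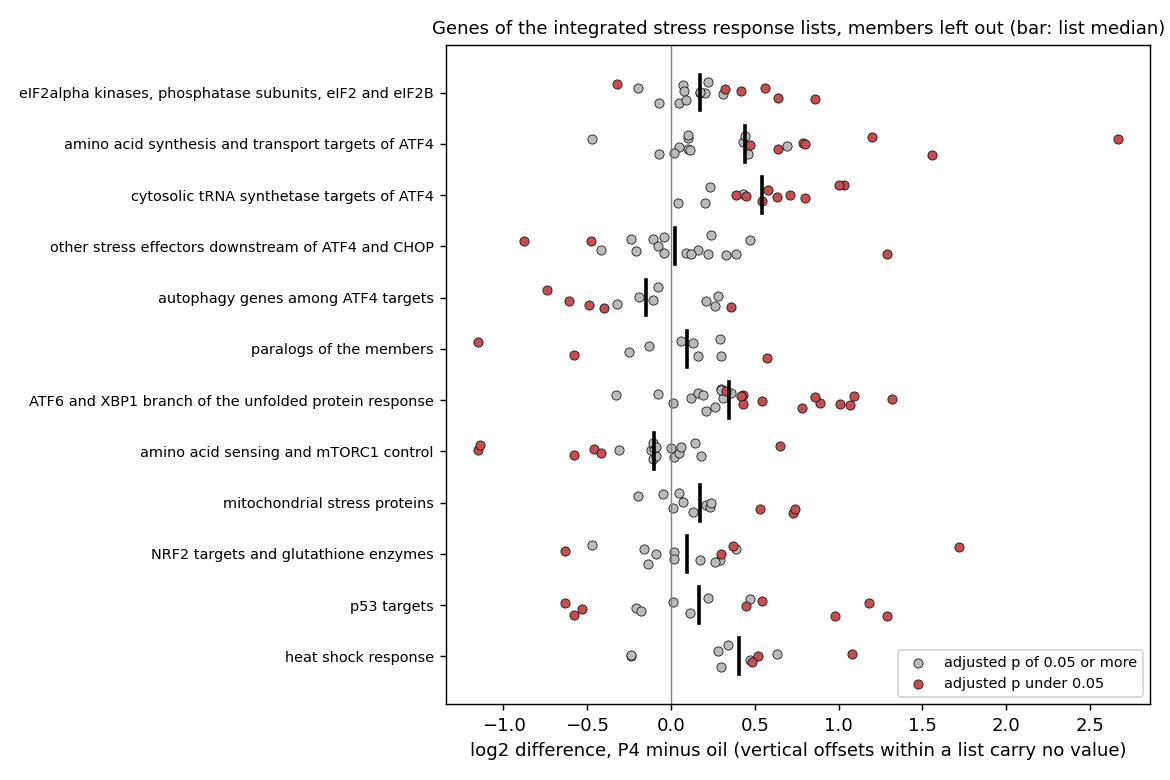
P4 minus oil difference in log2(intensity + 16) of each gene of the 12 lists, members left out; red marks a limma adjusted p under 0.05 over all genes and the black bar the list median. The tRNA synthetase list has the highest median, 0.54, and the stress effector list has a median of 0.03 with genes from -0.88 to 1.29.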

How the data were processed

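Uterine RNA of 6 mouse arrays, 3 oil and 3 P4, was analysed. The authors deposited 1 linear intensity for each probe set. Per the labels' protocols 5 ug of total RNA was made into biotinylated cRNA. The software and scaling behind the intensities are not given in the sources used here. Between any pair of arrays at most 18 of 45101 probe sets had identical values, and arrays correlated at 0.972 to 0.992 (log2).

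Values were used as log2(intensity + 16) and not normalized again, since medians of arrays lay within 0.0595 log2 (limit 0.5). By the platform annotation 34945 probe sets had 1 symbol, 932 had several, 64 were controls and 9160 are unnamed here. Per gene the probe set of highest mean was used (18193 genes). The groups were compared with limma (version 3.58.1, R 4.3.3; lmFit and eBayes with a trend), p-values were adjusted by Benjamini-Hochberg across the genes, and an adjusted p under 0.05 passed. Members' other probe sets come from a fit over all probe sets. All members, lists and tests were chosen with earlier results of these data known. The 12 lists are those of the text; list genes that were not measured are not analysed here. Named are all members, up to 4 called genes without overlap per list by size, the regulators Eif2ak1, Eif2ak2, Eif2ak3, Eif2ak4, Ppp1r15a, Ppp1r15b, Atf3, Cebpb and Xbp1 (Eif2s1 is not analysed here) and the 4 nearest profiles of 5 members; Psat1, Slc7a11, Sars, Xpot, Ddit4, Herpud1, Chac2, Eif4ebp2 and the genes with a motif match were named after their values were seen. The fit was tested on simulated data. Replicate numbers occur in both groups, and the labels do not say that equal numbers are pairs. Deviations from group means correlated at 0.53, 0.13 and 0.64 between equal numbers, each above a limit of 0.1 set here. Oil replicate 2 with P4 replicate 1 gave 0.29, more than the 0.13 of the 2 arrays numbered 2. With 3 arrays a group these correlations are not independent, so they cannot settle whether the arrays are paired. Calls are from the unpaired fit unless the block on replicate number is mentioned. Alternatives were other normalizations, pseudocounts of 1 and 50, filters of the dimmest 30% or 50%, other probe set rules, other moderation, array weights, the block and arrays left out. Promoters were RefSeq's (GRCm38.p6). Figures were drawn with matplotlib 3.10.9. With 3 arrays a group, their number limits precision.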

Additional observations from a re-analysis of the deposited data

How the results depend on the processing

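In the alternatives that measured them, 7 members kept the sign of their difference. Trib3 was positive in 3 of 19, Chac1 in 1 of 20, and Cebpg was 0.00 in 1 of 21, and none of these passed in any. Atf4 ranged from 0.55 to 0.93 and Asns from 1.28 to 1.56, and both passed in all 21 alternatives. Sesn2 passed in 14 of 20. Members past the threshold numbered 2 to 3 with 1 array left out, and 6 of 21 with all probe sets as features. Genes past the threshold numbered 993 to 2302 of 18193 with 1 array left out (2368 with all), 3801 with the replicate block and 171 with both arrays numbered 2 left out. List genes numbered 35 to 63 of 169 with 1 array left out (64 with all), lowest without oil replicate 2, 128 of 411 probe sets with all probe sets as features, and 13 with both arrays numbered 2 left out. Scaling to the hybridisation controls turned the list genes from 76.6% higher to 90.5%. With the replicate block the stress effectors counted 2 higher and 3 lower, the autophagy genes 3 and 5 and the heat shock genes 7 and 1; it changed the call of 1 member, Atf5. The causes were not tested. Without probe sets ending in x, s or a, Atf5, Trib3 and Nupr1 have no value.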

Other observations

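Lists at the border of the group held further changes. Glutathione breakdown, in which Chac1 takes part, showed 2 called enzymes: Ggct, which like Chac1 releases 5-oxoproline, rose from 223 ± 12.8 (SD, n = 3) to 793 ± 235 (SD, n = 3), a difference of 1.72 ± 0.20 (limma adjusted p 0.00234), and Oplah, which opens 5-oxoproline to glutamate, went from 336 ± 6.35 to 215 ± 47.5 (-0.63 ± 0.15, adjusted p 0.0322). The Ggct value came from a probe set ending in a. The fit without probe sets ending in x, s or a read Ggct on another probe set, with a difference of 0.17 (limma adjusted p 0.308). Oplah missed the threshold without any 1 oil array or P4 replicate 2 (up to 0.109). Gclc (0.30 ± 0.08) and Gclm (0.37 ± 0.10), which make glutathione, passed narrowly, both at an adjusted p of 0.0465. Gclc lost its call in all 6 fits with 1 array left out and Gclm in 5, all but that without P4 replicate 1. Of 14 NRF2 and glutathione genes 3 rose and 1 fell, and 1 rose and 0 fell when oil replicate 1 or 2 or P4 replicate 2 was left out. With scaling to hybridisation controls 5 rose and 0 fell.

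Among 14 p53 targets, a class to which Sesn2 also belongs, 5 rose and 3 fell, but 2 rose and 2 fell when oil replicate 2 was left out, and 3 rose and 2 fell when P4 replicate 2 was; 6 rose and 2 fell with scaling to hybridisation controls. Pmaip1 (1.29 ± 0.24), counted above with the stress effectors, rose, as did Ccng1 (1.18 ± 0.17) and the nuclease Aen (0.98 ± 0.09). Btg2 had -0.63 ± 0.13 and Sesn1 -0.58 ± 0.10. Btg2 missed the threshold when oil replicate 2 or 3 or P4 replicate 2 was left out (limma adjusted p at most 0.0864). It also missed it with scaling to hybridisation controls (0.0519). The mitochondrial chaperones Hspd1 (0.73 ± 0.09), Hspe1 (0.74 ± 0.12) and Hspa9 (0.53 ± 0.07) rose, 3 of 12 in their list with 0 lower. Of 10 heat shock genes 3 rose and 0 fell (1 and 0 without P4 replicate 2, 6 and 0 with that scaling), Hsph1 by 1.08 ± 0.25, Hsp90aa1 by 0.52 ± 0.11 (0.0605 without P4 replicate 2) and Hspa4 by 0.48 ± 0.08; Hsph1 lost its call in 5 of the 6 fits with 1 array left out.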
